A study of Mus musculus with 577 samples.

Results

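The maternal transcripts Mos, Ccnb2, Tpx2, Plat, Dcp1a and Dcp2 were followed through the oocytes, granulosa cells and embryonic stem cells of a mouse ovary study. They are 6 of the 22060 protein-coding genes counted, and were taken by their gene symbols from every count table. The study isolated single cells from stained ovarian sections by laser capture microdissection (LCM), lysed them with a denaturing detergent that is then quenched (DRaqL), and amplified their cDNA. Its 577 libraries also include cells lysed without DRaqL, dissociated and cultured cells, and samples of more than 1 cell. Ovaries came from 8-week-old female mice, whose strain and genotype are not given in the sources used here. The main method was DRaqL-SC3-seq, which reads the 3′ ends of mRNAs, and it covered 14 oocytes of primary follicles and 30 oocytes of secondary to early antral follicles, here called later oocytes. It also covered 31 neighboring granulosa cells, which touch the oocyte, 26 non-neighboring ones, and 16 serial sections of later oocytes. Mouse embryonic stem cells (mESCs) were grown in LIF at 1 U/µL with the inhibitors CHIR99021 at 3 µM and PD0325901 at 0.4 µM, and 36 were captured from sections of frozen cell blocks while 45 were picked fresh. Other oocytes and granulosa cells were amplified by SMART-Seq v4 and by DRaqL-SMART-Seq v4. Those from sections fixed in formalin for 24 h were lysed with an added protease and amplified by DRaqL-Protease-Smart-seq2. Fixation, protease and amplification therefore cannot be told apart in the results given as after formalin. Primary and later oocytes numbered 7 and 11, 6 and 9, and 5 and 7 in these 3 methods. Granulosa cells alone were also amplified by DRaqL-Smart-seq2 and by LCM-seq. A further set came from 1 mouse, with 8 later oocytes and 35 granulosa cells of each position captured by LCM from an ovary (DRaqL-Smart-seq2), and 14 grown oocytes and 35 granulosa cells dissociated from complexes of the other ovary in medium with dibutyryl-cAMP (Smart-seq2). Granulosa cells were also sequenced as 7 neighboring pools and 7 non-neighboring pools of 10 cells and as 7 bulk samples of whole follicle granulosa, from which any oocyte was removed first. A captured oocyte is a slice of the cell rather than the whole, and the mESCs are a cultured line, which limits both as models of cells in the animal.

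A growing oocyte makes and stores many mRNAs that it does not translate at once. Such dormant transcripts keep short poly(A) tails while the oocyte is arrested, and are polyadenylated and translated when meiosis resumes. Binding of CPEB1 to a U-rich cytoplasmic polyadenylation element near the poly(A) signal is the best known switch. Mos encodes the kinase that drives the MAPK cascade and holds the egg in metaphase, Ccnb2 a B-type cyclin that activates CDK1, Tpx2 a microtubule factor that activates Aurora A on the spindle, Plat the secreted tissue-type plasminogen activator, and Dcp1a and Dcp2 the activator and the catalytic subunit of the enzyme that removes the mRNA cap. Ccnb2, Tpx2 and the decapping genes are also used by somatic cells, and Ccnb2 and Tpx2 are highest in dividing cells around mitosis.

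The 3′ ends of these mRNAs are shown because they hold the letters that a dormant transcript is read by, and because the 3′ libraries count reads there. Each window below holds 30 bases of the last exon, 5′ to 3′ on the transcript's strand, in GRCm38 with the GENCODE annotation, and its capitals lie within the last 100 bases of an annotated transcript. Capitals mark the poly(A) signal AATAAA in Ccnb2, the run TTTTTA and the signal AATAAA in Mos, the element TTTTAT in Tpx2, the element TTTTAAT in Plat, and TTTTAAT overlapping AATAAA in Dcp1a. The window of Mos is chr4:3870666-3870695 on the minus strand, in its only exon. That of Ccnb2 is chr9:70407693-70407722 on the minus strand and ends 1 base before the annotated end. That of Tpx2 is chr2:152894608-152894637 on the plus strand, in the shorter of its annotated 3′ ends. Those of Plat and Dcp1a are chr8:22782744-22782773 and chr14:30527011-30527040 on the plus strand.
Mos: agggcataTTTTTAggaAATAAAgttacca
Ccnb2: gtattgaaggaaAATAAAgctattgatcta
Tpx2: gagatttcttgaTTTTATatatttggtttt
Plat: agtatatttataTTTTAATctattttagtt
Dcp1a: aaatatatttTTTTAATAAAatttcaaaac

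Of 21746 genes with 1 transcript each, the longest, TTTTAT was present in the last 100 bases of 12.9% and TTTTAAT in 4.65%. Either of them was held by 16.7%, searched on the transcript's own strand. For Tpx2 both annotated ends were searched, which is unlike the rule behind these shares. Tpx2 with the short end held TTTTAT and Plat held TTTTAAT, while Dcp1a held both, with a TTTTAT that begins 67 bases from its end, outside the window shown. Mos held TTTTA, which stands in 31.7% of the genes and is contained in both elements, without the bases that complete either. Ccnb2 and Dcp2 held no TTTTA in this window, and neither did the long end of Tpx2, which carried ATTAAA, present in 19.3% of the genes, in place of AATAAA, present in 61.7%. These matches are descriptions of letters and not of bound sites.

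Levels are reads of a gene divided by the protein-coding reads of its library and scaled to 1000000 (RPM), and differences are those of mean log2 (RPM+1) with the SD over cells. Primary and later oocytes of DRaqL-SC3-seq held between 873206 and 2338750 and between 1309694 and 1887918 reads. The libraries of the other methods were less even, from 442256 to 4127568 in SMART-Seq v4 oocytes, from 133799 to 3278505 in DRaqL-SMART-Seq v4 oocytes and from 188906 to 1997001 in formalin-fixed oocytes. The labels name no mouse for the single cells, so each group of cells counts as 1 sample and no test between groups of cells was made. A gene is called higher or lower past a 2-fold difference where its mean over both groups was at least 2 on the log2 scale. Intervals are exact 95% intervals on summed reads or on shares of cells and cover counting error alone. The cell types carried the markers of their labels. The 14 oocyte genes summed to a median of 36922 RPM in later oocytes and 9447 in primary oocytes, led by Gdf9 and Zp2, while in mESCs the 5 pluripotency genes summed to a median of 1499 after LCM, led by Zfp42. The 10 granulosa genes, led by Inha, summed to medians of 5806 and 6408 RPM in neighboring and non-neighboring granulosa cells, and to 83.7 in later and 498 in primary oocytes.

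In DRaqL-SC3-seq, Mos was the transcript of the 6 that differed most between the stages. In primary oocytes it ranged from 15.7 to 211 RPM with a median of 71, and in later oocytes from 201.3 to 1344 with a median of 942. Only 1 of the 14 primary oocytes lay above the lowest later oocyte. The mean log2 (RPM+1) was 6.11 ± 1.19 (SD, n = 14) in primary and 9.68 ± 0.61 (SD, n = 30) in later oocytes, a difference of 3.57, and summed reads gave 9.73-fold (interval 9.29 to 10.2). In SMART-Seq v4, Mos ran from 0 to 71.3 RPM (median 29.7) in primary and from 253 to 1147 (median 673) in later oocytes. The ranges were 0 to 336 (median 61.7) and 703 to 1797 (median 1281) in DRaqL-SMART-Seq v4. After formalin they were 3.52 to 65.7 (median 27) and 332 to 550 (median 398). The stages did not overlap in any of these 3 methods, and the differences were 5.45, 4.90 and 4.33.

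Plat, whose product turns plasminogen into plasmin, had the same direction with a wider spread. It ranged from 11.5 to 227 RPM (median 67.1) in primary and from 65 to 1102 (median 417) in later oocytes of DRaqL-SC3-seq, and 7 primary oocytes lay above the lowest later one. The mean was 6.04 ± 1.31 against 8.50 ± 1.03, a difference of 2.45 and 4.93-fold on summed reads (4.70 to 5.17). Elsewhere the stages of Plat did not overlap. SMART-Seq v4 gave 0 to 39.2 RPM (median 3.13) and 109.3 to 409 (median 260), and DRaqL-SMART-Seq v4 gave 17.1 to 99.5 (median 40.9) and 262 to 513 (median 289). After formalin, the ranges were 13 to 273 (median 102.2) and 588 to 1280 (median 1139). The differences were 5.53, 3.04 and 3.81.

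The cyclin and the spindle factor differed less by stage. Ccnb2 ranged from 0.673 to 165 RPM (median 21.6) in primary and from 18.9 to 106.9 (median 64.7) in later oocytes of DRaqL-SC3-seq. The highest primary oocyte stood above every later one, and the higher mean of the later oocytes, 5.95 ± 0.56 against 4.10 ± 2.11, went with a much narrower spread. The difference of Ccnb2 was 1.85 on the log2 scale, but 1.74-fold on summed reads (1.60 to 1.88), which is short of 2-fold. In the other methods the later median of Ccnb2 was 76.4 RPM against 15.9 in SMART-Seq v4, 61.1 against 19.6 in DRaqL-SMART-Seq v4 and 95.7 against 10.6 after formalin, and the differences were 2.13, 2.31 and 2.11. Reads of Ccnb2 are uncertain in part, since the annotation holds a processed pseudogene of it, Ccnb2-ps, at chr8:71916556-71918851. Tpx2 ranged from 34.4 to 137 RPM (median 73.4) in primary and from 61.4 to 173 (median 122) in later oocytes, a difference of 0.67 and 1.51-fold on summed reads (1.43 to 1.60). Tpx2 was thus already present at the primary stage in DRaqL-SC3-seq, and 9 of 14 primary oocytes lay above the lowest later one. Its difference was 0.34 in SMART-Seq v4, with medians of 94 and 95.7 RPM, 2.1 in DRaqL-SMART-Seq v4 (1.04 without primary oocyte 2), with 78.7 and 191, and 1.13 after formalin, with 47.1 and 187.

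The decapping partners parted from each other. Dcp1a ranged from 8.76 to 188 RPM (median 43) in primary and from 52.6 to 519 (median 250) in later oocytes, a difference of 2.51 and 4.56-fold on summed reads (4.28 to 4.85), and 5 primary oocytes lay above the lowest later one. Its stages did not overlap in SMART-Seq v4, with 24.8 to 64.7 RPM (median 33.7) and 96.1 to 406 (median 269), nor in DRaqL-SMART-Seq v4, with 0 to 70.5 (median 56) and 174 to 560 (median 305). After formalin they did, with 24.8 to 443 RPM (median 155) and 175 to 762 (median 354). The differences of Dcp1a were 2.79, 3.3 (2.32 without primary oocyte 2) and 1.54 in that order. Dcp2 ranged from 1.32 to 131 RPM (median 18.7) in primary and from 10.1 to 125 (median 61.2) in later oocytes of DRaqL-SC3-seq, a difference of 1.72 and 1.91-fold on summed reads (1.76 to 2.08). Its difference was 0.22 in SMART-Seq v4, with medians of 64.5 and 57.9 RPM, 2.62 in DRaqL-SMART-Seq v4, with 32.7 and 137, and 0.24 after formalin, with 48.7 and 82.4, where its sign turned when primary oocyte 2 or 3 was left out. The catalytic subunit therefore had no steady stage difference, whereas its activator was called higher in later oocytes by each of the 4 methods, although after formalin summed reads of Dcp1a gave 1.75-fold (1.62 to 1.88), short of 2-fold.

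**Figure D1:**
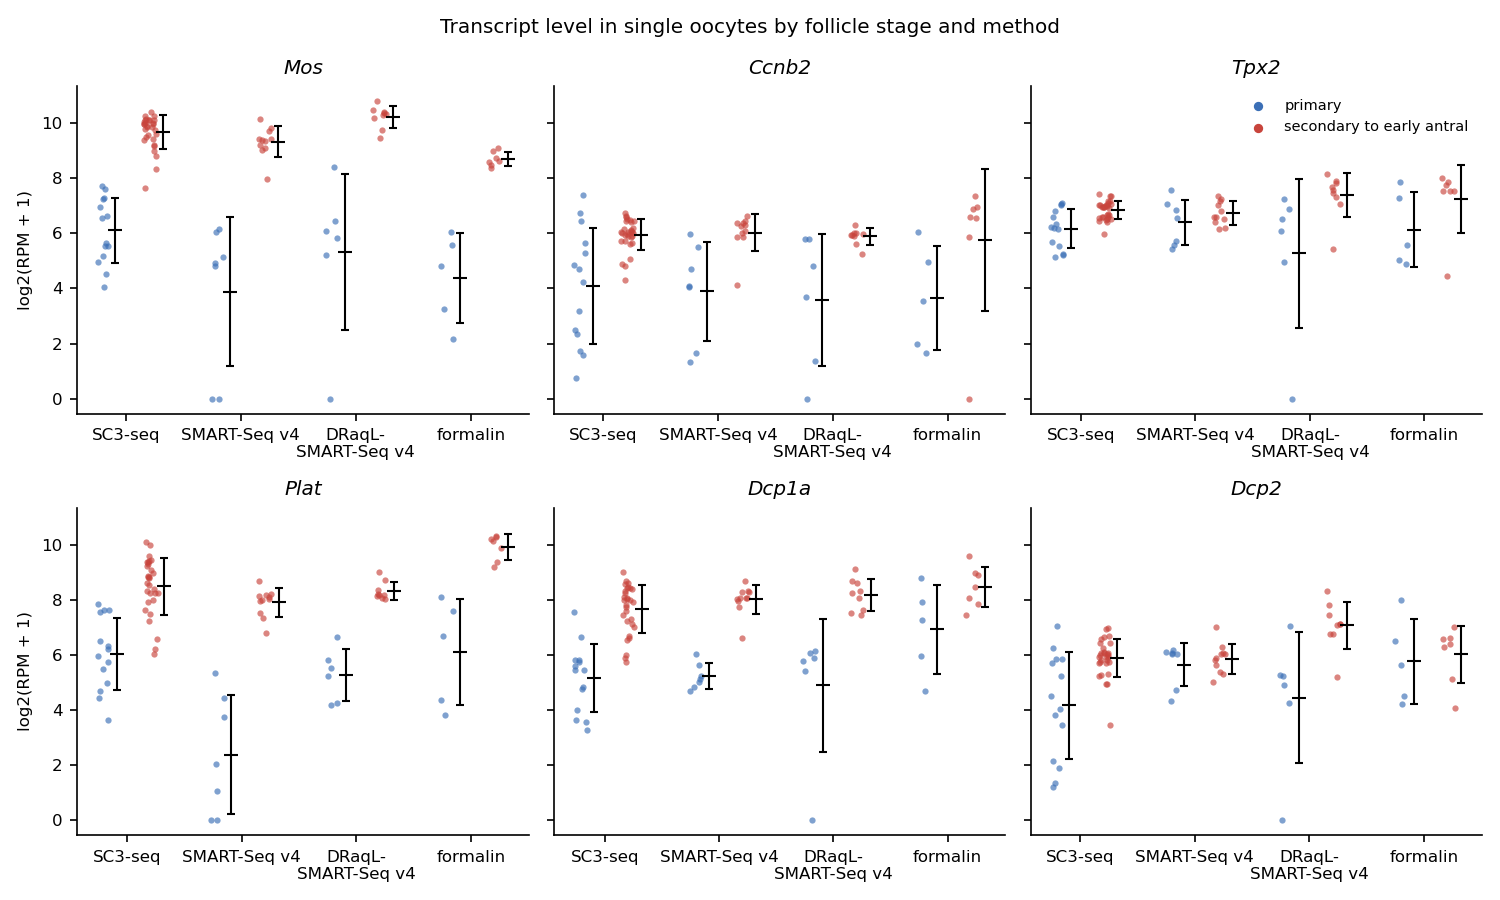
Level of each of the 6 transcripts, as log2 (RPM+1), in single primary and later oocytes by 4 methods, with 1 point per oocyte and bars for the mean and SD. Mos and Plat separate the stages in SMART-Seq v4, DRaqL-SMART-Seq v4 and formalin, whereas the points of Tpx2 and Dcp2 overlap in each method.

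By the 2-fold rule, 5 of the 6 transcripts were called higher in later oocytes by DRaqL-SC3-seq, where 33.3% of 10853 genes were called higher and 15.3% lower. SMART-Seq v4 called 4 of 6, where 31.1% of 11006 genes were higher and 16.9% lower. DRaqL-SMART-Seq v4 called 6 of 6, where 35% were higher and 22.2% lower, and formalin called 5 of 6, where 26.6% were higher and 25.5% lower. None of the 6 was called lower by any of these methods. These shares rest on means over cells. On summed reads, 2209 of 12124 genes were higher and 3547 lower in DRaqL-SC3-seq, so that the balance of all genes turned, and 3 of the 6 were past 2-fold. It turned as well in DRaqL-SMART-Seq v4, with 2774 higher and 3590 lower, and after formalin, with 3618 and 3725, but not in SMART-Seq v4, with 2931 and 2729. After formalin, summed reads left 4 of 6, as did leaving out primary oocyte 1 (without Dcp1a) or primary oocyte 2, 3 or 5 or later oocyte 6 (without Tpx2). Leaving out an oocyte of SMART-Seq v4 or DRaqL-SMART-Seq v4 kept their calls, at 4 and 6 of 6, yet some differences of DRaqL-SMART-Seq v4 leaned on 1 primary oocyte. Without primary oocyte 2, which had no reads of Tpx2 or Dcp1a, Tpx2 went from 2.1 to 1.04, Dcp1a from 3.3 to 2.32 and Ccnb2 from 2.31 to 1.60. Without primary oocyte 5, Mos went from 4.90 to 3.84 and Dcp2 from 2.62 to 1.73. In SMART-Seq v4, Mos was at 4.81 without a primary oocyte at 0 RPM, such as primary oocyte 4, and after formalin Ccnb2 was at 3.07 without later oocyte 3, which had no reads of it. The medians of all genes tested were 0.37, 0.27, 0.28 and -0.03, and the median over the 6 was 2.15 in DRaqL-SC3-seq. Mos, Plat, Dcp1a and Ccnb2 were called higher in 4 of 4 methods, and Tpx2 and Dcp2 in 2 of 4. RPM describes a share of the mRNA. Spike-in counts (ERCC) were available for 3 methods. Per spike-in read, each of the 6 was past 2-fold in SMART-Seq v4 and DRaqL-SMART-Seq v4. Most genes were past 2-fold there as well, with 8634 of 11397 higher in SMART-Seq v4 and 10234 of 11407 in DRaqL-SMART-Seq v4. Mos differed by 6.97 and 7.57 in these 2 methods, and by 5.81 after formalin. In SMART-Seq v4, the library names place the 7 primary oocytes in a set with 1 later oocyte and the other 10 later oocytes in another set. That later oocyte had 253 RPM of Mos, 109.3 of Plat and 96.1 of Dcp1a, the lowest of the 11 in each, yet above every primary oocyte. Its Ccnb2, at 16.4 RPM also the lowest of the 11, lay within the primary range of 1.49 to 62.6, as did its Dcp2 at 40.4 RPM and its Tpx2 at 164 RPM within theirs. In DRaqL-SMART-Seq v4 the 6 primary and 9 later oocytes belong to separate sets, so that stage and set cannot be told apart there. The stages share a set after formalin.

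Serial sections of the same oocyte show how closely a value repeats. Each of 8 later oocytes gave 2 sections, and Mos read 1133 and 1063 RPM in the first oocyte, 1226 and 1274 in the second, and 1177 and 1643 in the pair that differed most. The median absolute difference of log2 (RPM+1) between sections of an oocyte was 0.09 for Mos, against 0.19 between sections of different oocytes. The same medians were 0.24 and 0.51 for Tpx2, 0.26 and 0.44 for Dcp2, 0.40 and 0.59 for Dcp1a, 0.47 and 0.63 for Plat, and 0.37 and 0.40 for Ccnb2. The stage difference of each transcript in DRaqL-SC3-seq was larger than its widest difference between sections of an oocyte. That widest difference was 0.48 for Mos, 0.91 for Plat and 0.68 for Dcp1a. This describes how a section repeats and not the spread between oocytes, since the widest difference between sections of different later oocytes was 0.63 for Mos, 2.15 for Plat and 1.79 for Dcp1a. For Ccnb2, the widest was 1.00 within an oocyte and 1.61 between oocytes, beside a stage difference of 1.85. For Dcp2, the widest was 1.05 within an oocyte and 1.51 between oocytes, beside a stage difference of 1.72. The margin was narrow for Tpx2, with 0.65 within an oocyte and 1.33 between oocytes, beside a stage difference of 0.67. In the set from 1 mouse, Mos ranged from 249 to 1482 RPM (median 1042) in 8 captured and from 783 to 1115 (median 943) in 14 dissociated oocytes. Plat had medians of 550 and 800.5 RPM there, and the ranges overlapped for both genes. Ccnb2 ranged from 43.4 to 185 RPM (median 76.4) in captured and from 122 to 367 (median 222) in dissociated oocytes, with overlapping ranges. Slicing, oocyte stage, amplification method and medium differ together between captured and dissociated oocytes and cannot be told apart.

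Other genes of the same processes were counted from fixed lists by the stage difference in DRaqL-SC3-seq. Their counts are read against the 33.3% of all genes called higher, the 15.3% called lower and the median of 0.37, all from means over cells. Of 9 further transcripts known to be dormant, 8 were called higher and 0 lower, with a median of 1.84. They included Btg4, the adaptor that recruits the deadenylase for maternal mRNA clearance, at 3.36, and the deadenylase gene Cnot6l at 3.11. Dazl, which promotes translation in the maturing oocyte, stood at 1.01, and Cnot7, another deadenylase gene, at 0.91. Of 8 genes for storage of maternal mRNA, 5 were higher and 0 lower (median 1.58), led by Pabpc1l, an oocyte poly(A)-binding protein, at 4.84 and Lsm14a at 2.68, whereas Ddx6 was at -0.69 and Ybx2 at -0.48. Of 12 regulators of CDK1 and cyclin B past the filter, 7 were higher and 1 lower (median 1.87), from Fbxo5, an inhibitor of the anaphase-promoting complex, at 3.20 and the phosphatase gene Cdc25a at 3.18 to Fzr1 at -0.43 and Cdc25b at -1.26.

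The lists for the machinery around these transcripts had shares nearer to those of all genes. Of 13 spindle genes, 5 were higher and 1 lower (median 0.82), with Aurkc at 2.64, Plk1 at 1.78, Ran at -0.78 and Kif15 at -1.34. Of 11 genes of cytoplasmic polyadenylation, 3 were higher and 1 lower (median 0.28), with the cap-binding Eif4e1b at 5.49, Cpsf2 at 2.81, Sympk at -0.57 and Cpsf1 at -1.48. Of 19 genes of decapping and decay, 4 were higher and 3 lower (median 0.34). Patl2 at 3.38 and Btg4 at 3.36 stood at the top, and the decapping cofactor genes Edc3 at -1.69 and Dcp1b, the paralog of Dcp1a, at -2.44 at the bottom. Dcp1a and Dcp1b thus differed in opposite directions. Of 9 genes around the MAPK cascade below Mos, 2 were higher and 1 lower (median -0.23), with Fbxo43, which restrains the anaphase-promoting complex in the egg, at 3.43, Map2k1 at 1.30, Rps6ka3 at -0.96 and Braf at -1.59. Of 6 genes of the plasminogen system, Serpine2, an inhibitor of plasminogen activators, passed the filter and stood at 1.87.

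Against dividing stem cells, Mos and Plat had few or no reads in mESCs, Dcp1a had low levels there, and the other transcripts had levels like those of oocytes or above. Mos was without reads in 45 fresh mESCs (0 of 45 cells, which allows a share of up to 7.87%) and had 1 read in 1 of 36 LCM mESCs (2.78%, interval 0.0703 to 14.5). Against the floor of 3 reads over the fresh group, Mos was at least 26012-fold higher in later oocytes, or 8900.3-fold at the lower limit of the counting interval around 3 reads. Plat was without reads in the 36 LCM mESCs (share of up to 9.74%), at least 10420-fold below later oocytes against the same floor, with a lower limit of 3565-fold. In fresh mESCs Plat had reads in 7 of 45 cells with a highest value of 29.3 RPM, and summed reads put later oocytes 429-fold higher (349 to 532). Dcp1a ranged from 0 to 51.5 RPM (median 3.79) in LCM mESCs, below the lowest later oocyte, with a difference of 5.34 and 26.5-fold on summed reads (24.5 to 28.8). In fresh mESCs it ranged from 0 to 79.9 RPM (median 4.93), with 2 cells above the lowest later oocyte, and the difference was 4.72 and 17.2-fold on summed reads (16.2 to 18.3). Reads of Dcp1a were found in 30 of 36 LCM and 44 of 45 fresh mESCs, so that most mESCs held some of it.

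Ccnb2, Tpx2 and Dcp2 were abundant in mESCs. Ccnb2 ranged from 5.15 to 578 RPM (median 165) in LCM mESCs against a median of 64.7 in later oocytes, and summed reads gave 2.58-fold more in mESCs. Tpx2 ranged from 3.95 to 433 RPM (median 150), which enclosed all later oocytes, and Dcp2 from 3.82 to 479 (median 141) against a median of 61.2. The difference of later oocytes minus LCM mESCs was 0.24 for Tpx2, -0.61 for Ccnb2 and -1.05 for Dcp2, and summed reads of Dcp2 were 2.56-fold higher in mESCs. Of the 6 transcripts, 3 were thus called higher in later oocytes, where 54.8% of 10185 genes were called higher, and Dcp2 was called lower, where 17.6% were. With fresh mESCs the difference of Dcp2 was -0.89, short of 2-fold. The median of all genes was 1.30, so that Tpx2, Ccnb2 and Dcp2 lay below it. The spread over mESCs was wide for the cell cycle genes, with an SD of 1.86 for Ccnb2 and 1.65 for Tpx2, and across the 36 LCM mESCs their levels went with the summed level of 10 proliferation genes (Pearson's r of 0.63 and 0.65). In 45 fresh mESCs, r was 0.48 for Ccnb2 and 0.71 for Tpx2. These coefficients are descriptions over cells that share a library total.

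The lists are set against the 54.8% of all genes called higher, the 17.6% called lower and the median of 1.30. Among them, later oocytes exceeded LCM mESCs in 7 of 8 storage genes with a median of 5.48, and in 6 of 9 further dormant transcripts with a median of 2.56, with 0 lower in each list. The shares called higher in the lists for decay, MAPK, CDK1, spindle and polyadenylation were near or below that of all genes. Of 19 genes of decapping and decay 10 were higher and 1 lower, and of the 9 genes around the MAPK cascade 4 were higher and 1 lower. Of the 12 measured regulators of CDK1 and cyclin B, 6 were higher and 1 lower. Of the 12 measured spindle genes, 4 were higher and 2 lower, with Ran, the GTPase that releases Tpx2 from importins, at -4.38. Of 10 polyadenylation genes 4 were higher and 0 lower. Serpine2 differed by 7.79.

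**Figure D2:**
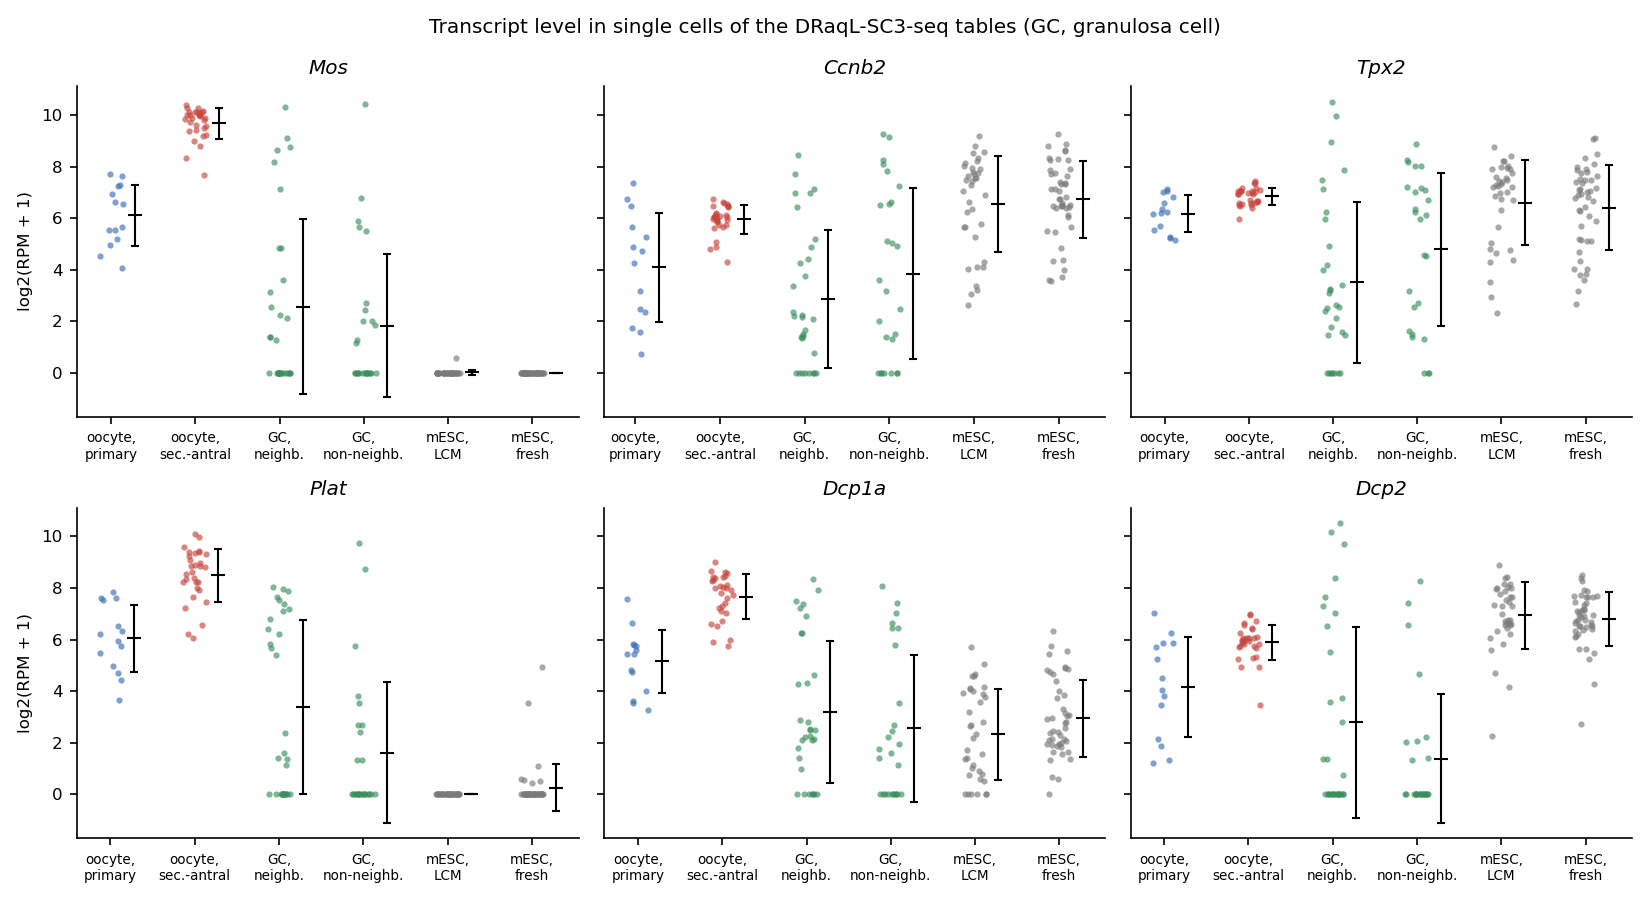
Level of each transcript, as log2 (RPM+1), in single cells of DRaqL-SC3-seq, with 1 point per cell and bars for the mean and SD, for primary and later oocytes, neighboring and non-neighboring granulosa cells, LCM mESCs and fresh mESCs. Mos and Plat are at or near 0 in most mESCs, with Plat up to 29.3 RPM in fresh ones, whereas Ccnb2, Tpx2 and Dcp2 reach the levels of oocytes there.

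Granulosa cells, the somatic cells that feed the oocyte, divide in growing follicles and offer a comparison within the ovary. Mos was read in 16 of 31 neighboring cells of DRaqL-SC3-seq (51.6%, interval 33.1 to 69.8) with a range of 0 to 1251 RPM and a median of 1.40, and in 12 of 26 non-neighboring cells (46.2%) with a range of 0 to 1366 and a median of 0. Most granulosa cells were thus far below the oocytes, and a few reached the oocyte range. In other methods the share was larger among neighboring cells. LCM-seq gave 13 of 17 neighboring (76.5%) and 3 of 20 non-neighboring cells (15.0%), DRaqL-Smart-seq2 10 of 15 and 4 of 19, DRaqL-SMART-Seq v4 7 of 20 and 5 of 19, and SMART-Seq v4 3 of 17 and 2 of 17. Formalin gave 3 of 12 and 1 of 12. In the set from 1 mouse it was 16 of 35 and 12 of 35 after LCM and 7 of 14 and 8 of 21 after dissociation. For the dissociated cells, neighboring stands for cells attached to an oocyte and non-neighboring for other cells of the complexes, rather than for a position in a section. No dissociated cell was left out for a profile mixed with that of oocytes, and 3 of the 14 and 0 of the 21 reached 10% of the oocyte median of the 14 oocyte genes. Among mESCs, which should lack Mos, it was 1 of 36 and 0 of 45, with medians of 1951462 and 2068207 reads a library, against 585673 and 544072 in neighboring and non-neighboring cells of DRaqL-SC3-seq.

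Thinning granulosa libraries to the shallowest of their method left the order for the LCM cells of 1 mouse, with 8 of 35 neighboring and 2 of 35 non-neighboring cells. It brought DRaqL-SC3-seq to 13 of 31 (41.9%) and 11 of 26 (42.3%), so that the order was not kept there. The libraries of LCM-seq and DRaqL-Smart-seq2 were not thinned. Plat had a pattern over positions like that of Mos. It was read in 25 of 35 neighboring (71.4%) and 9 of 35 non-neighboring (25.7%) LCM cells of 1 mouse, and in 10 of 12 and 3 of 12 formalin-fixed cells. The gap was smaller in SMART-Seq v4, at 6 of 17 and 5 of 17, and in the dissociated cells, at 6 of 14 and 6 of 21. In DRaqL-SC3-seq, Plat had a median of 2.07 RPM in neighboring cells (highest 263) and of 0 in non-neighboring cells (highest 857). Dcp1a had medians of 4.65 and 2.23 RPM there, Ccnb2 of 3.49 and 9.57, and Tpx2 of 5.12 and 64.6, each with cells at 0 in both positions. Dcp2 had a median of 0 in both positions and reached 1488 RPM in 1 neighboring cell.

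As a mean over cells, later oocytes exceeded granulosa cells in 6 comparisons. The difference was 7.45 to 9.16 for Mos, 5.92 to 8.14 for Plat, 2.97 to 6.16 for Dcp1a, 2.30 to 4.75 for Dcp2, 2.02 to 3.82 for Tpx2 and 0.51 to 2.64 for Ccnb2. Each transcript was called higher in each comparison apart from Ccnb2 after formalin. Most genes were called higher as well, namely 77.3% in DRaqL-SC3-seq, 78.4% in SMART-Seq v4, 58% in DRaqL-SMART-Seq v4, 54.6% after formalin, and 68.4% and 65.4% in the captured and dissociated cells of 1 mouse. The median of all genes was 2.57, 2.62, 1.46, 1.26, 2.07 and 2.00 in that order, so that Mos, Plat, Dcp1a, Dcp2 and Tpx2 lay above it in each comparison, and Ccnb2 fell below it in SMART-Seq v4 and after formalin. On summed reads, in which cells without reads weigh less, the balance of all genes turned, with 3339 of 12248 genes higher and 4009 lower in DRaqL-SC3-seq, and more genes lower than higher in the other 5 comparisons too. Summed reads gave 10.4-fold, 72.7-fold, 102.98-fold, 43.9-fold, 32.5-fold and 49.3-fold for Mos in the same order. For Ccnb2 they gave 1.03-fold, 0.97-fold, 0.91-fold, 1.37-fold, 1.61-fold and 1.37-fold, and for Tpx2 1.05-fold, 1.20-fold, 1.80-fold, 1.66-fold, 1.27-fold and 0.76-fold. By that measure the cyclin and the spindle factor were within 2-fold between the cell types in each comparison. Dcp1a was at 5.55-fold in DRaqL-SC3-seq and Dcp2 at 0.75-fold, beside 3.77-fold for Dcp2 in SMART-Seq v4 and 4.37-fold in DRaqL-SMART-Seq v4. Across 57 granulosa cells of DRaqL-SC3-seq, the r with the proliferation genes was 0.30 for Ccnb2, 0.33 for Tpx2 and 0.00 for Mos. Over the other 4 sets computed (the LCM cells of 1 mouse, SMART-Seq v4, DRaqL-SMART-Seq v4 and formalin), it ran from 0.43 to 0.67 for Ccnb2, from 0.48 to 0.71 for Tpx2, and from 0.02 to 0.49 for Mos, highest after formalin.

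Oocyte markers moved with Mos among granulosa cells. The 14 oocyte genes summed to a median of 2943 RPM in neighboring cells (highest 17299) and of 64.2 in non-neighboring cells (highest 14355), led by Obox1, against 36922 in later oocytes. In LCM-seq they had medians of 1545 RPM in neighboring and 29.8 in non-neighboring cells, and in DRaqL-Smart-seq2 of 714 and 20.8. They moved with position where the gap in Mos was small too, at 423 and 5.00 RPM in DRaqL-SMART-Seq v4 and 1111 and 38.4 in SMART-Seq v4. After formalin the medians were 987 and 81.5 RPM. In the set from 1 mouse they were 350 and 124 RPM after LCM, and 157 and 155 after dissociation. In DRaqL-SC3-seq they reached 10% of the oocyte median in 10 of 31 neighboring and 2 of 26 non-neighboring cells. Below that level, Mos was read in 7 of 21 and 10 of 24 cells, and its mean log2 (RPM+1) was 1.44 in place of 2.56 and 1.27 in place of 1.83. The highest Mos value below that level was 1251 RPM in a neighboring cell and 58.3 in a non-neighboring one. For every 100 reads of the oocyte genes, neighboring cells held 2.36 reads of Mos, non-neighboring cells 5.78 and later oocytes 2.46. In single granulosa cells of SMART-Seq v4, DRaqL-SMART-Seq v4, formalin and the set from 1 mouse, this number ran from 0.542 to 4.12, and in their oocytes from 1.50 to 4.68. Across the 57 cells, Mos correlated with the oocyte genes with an r of 0.60, and the part of oocyte RNA in the Mos reads of granulosa cells was not tested.

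The pools were the samples with replicates, and asked whether granulosa cells next to the oocyte differ from those farther away. The labels do not name the animals, so that the p-values measure the spread between pools, which may be technical. Mos had 111.7, 48.5, 115.9, 303, 305, 325 and 30.6 RPM in neighboring pools 1 to 7, and 0.480, 4.40, 5.50, 0.363, 0, 1.57 and 0 in non-neighboring pools 1 to 7. Every neighboring pool was above every non-neighboring pool. By edgeR's quasi-likelihood test with Benjamini-Hochberg adjustment, Mos was higher in neighboring pools, with a log2 fold change of 6.5 (SE 1.17, adjusted p = 0.0204, n = 7 and 7). Without neighboring pool 5 the adjusted p was 0.0639, and without neighboring pool 6 it was 0.0568. Of the 6 transcripts Mos alone passed, where 0.453% of 9704 genes did, all 44 of them higher in neighboring pools and 0 lower. Without adjustment, 245 genes were higher and 157 lower at p under 0.05, and DESeq2 called 409 genes, 300 of them higher. Leaving out a pool gave from 0.0296% (3 genes, without neighboring pool 5) to 0.567% of the genes tested.

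Plat had 28.2, 31.6, 67.3, 285, 396, 205 and 22.6 RPM in the neighboring pools and 1.20, 1.40, 1.44, 0, 0, 64.3 and 0.469 in the non-neighboring pools. Non-neighboring pool 6 lay within the neighboring range, and the others lay below it. With that pool, the log2 fold change of Plat was 3.78 (SE 1.40) and did not pass (edgeR adjusted p = 0.854). Without it, the log2 fold change was 7.48 with an adjusted p of 0.0212. The same pool held 1700 RPM of the blood markers, 5239 of the genes listed for theca and interstitial cells and 15752 of the granulosa markers. Each was the highest of the 14 pools. Dcp1a had 2.75 to 285 RPM (median 55.9) and 5.40 to 80.4 (median 34.1) by position, Ccnb2 13.5 to 455 (median 79.5) and 2.1 to 154 (median 77.7), Tpx2 22.2 to 147 (median 84.7) and 11.4 to 244 (median 84.6), and Dcp2 0.137 to 88.1 (median 13.2) and 0 to 76.8 (median 8.62). The positions overlapped for each of these genes, and the log2 fold changes were 1.43 for Dcp1a, 1.06 for Ccnb2, -0.17 for Tpx2 and -0.26 for Dcp2 (edgeR adjusted p = 0.998 each). Leaving out a pool turned the sign of the last 3 of these, to as far as -0.10, 0.31 and 0.42, and gave 0.73 to 1.896 for Dcp1a.

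The oocyte markers moved with Mos in the pools as well. They summed to 1083, 1582, 876, 6924, 8865, 6923 and 856 RPM in the neighboring pools, led by H1foo, and to 142, 151, 8.12, 59.8, 124, 66.4 and 2.34 in the non-neighboring pools. Pools 4, 5 and 6 were highest among the neighboring pools in Mos, in Plat and in the markers. For every 100 reads of the markers, neighboring pools held 4.71 reads of Mos and non-neighboring pools 2.61. The latter number rests on 75 reads of Mos and leans on non-neighboring pool 3, which had the most Mos of these pools (5.50 RPM) beside 8.12 RPM of the markers. The genes listed for theca and interstitial cells, led by Hsd3b1, had a median of 892 RPM in non-neighboring pools and of 0.477 in neighboring ones. This list is not particular to theca cells. It had a median of 3306 RPM, also led by Hsd3b1, in dissociated non-neighboring granulosa cells of the complexes. The part of oocyte RNA in these differences and the source of the Hsd3b1 reads were not tested. In pools and bulk samples, fewer cells of a type and less RNA per cell cannot be told apart.

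**Figure D3:**
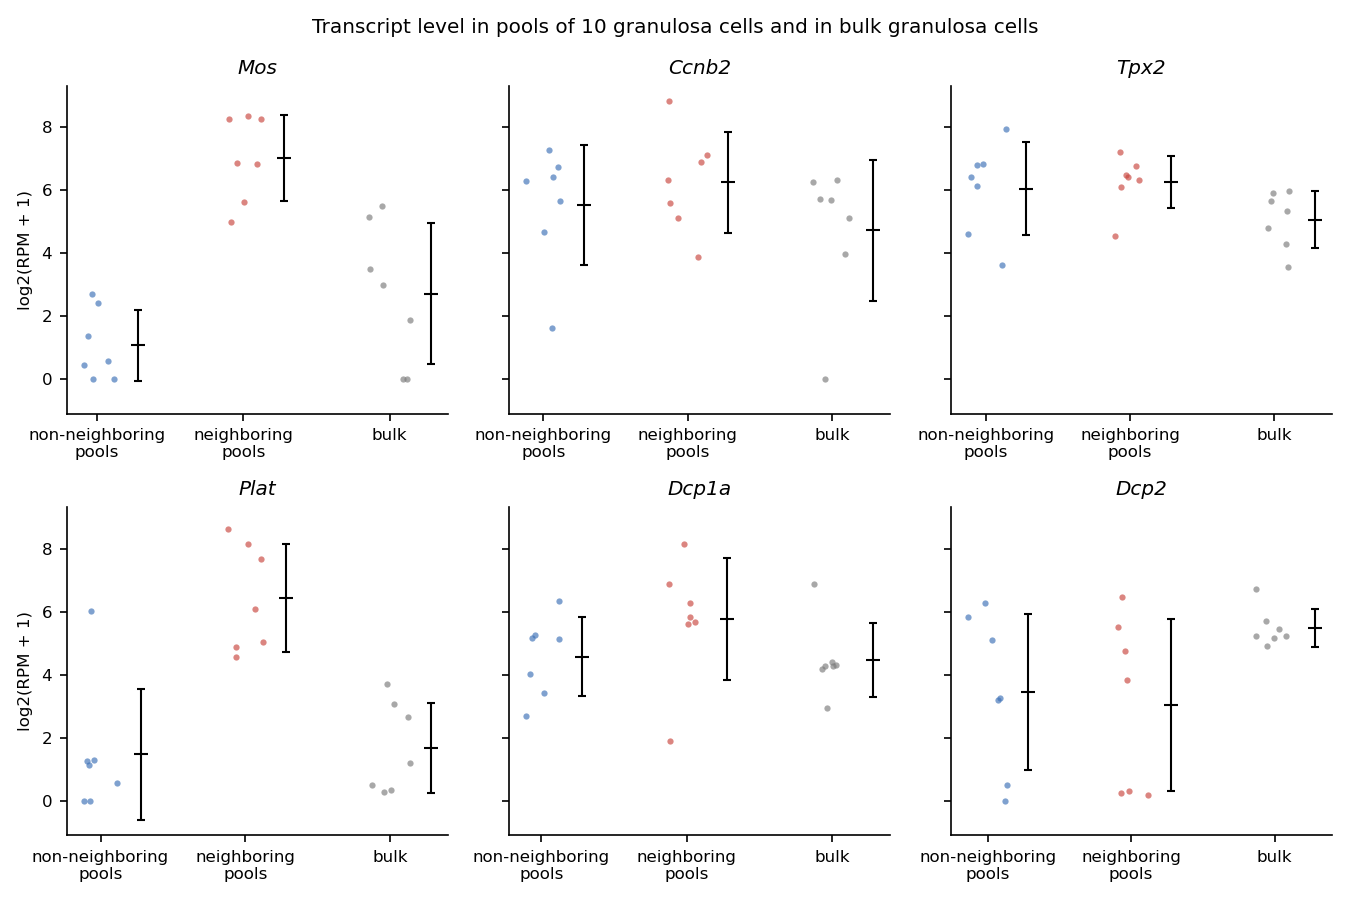
Level of the 6 transcripts, as log2 (RPM+1), in 7 non-neighboring pools, 7 neighboring pools and 7 bulk granulosa samples, with 1 point per library and bars for the mean and SD. Mos lies between 30.6 and 325 RPM in neighboring pools and between 0 and 5.50 in non-neighboring pools.

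The bulk samples hold granulosa cells taken without regard to position and were set against the pools. Per the paper, the pools came from early antral follicles. Its bulk samples also included follicles of unidentified stage with no oocyte in the section. Follicle stage and kind of sample therefore cannot be told apart here. The oocyte markers summed to 37.9, 10.9 and 4.97 RPM in bulk samples 2, 6 and 8, and to between 191 and 1713 in the rest. Mos had 6.87, 2.69, 34.3, 44.1, 10.4, 0 and 0 RPM in the 7 bulk samples, and Plat had 1.28, 0.207, 7.33, 11.9, 5.36, 0.403 and 0.261. The bulk values lay between the medians of the neighboring and non-neighboring pools in 5 of 7 samples for Mos and in 4 of 7 for Plat. No transcript of the 6 passed edgeR's quasi-likelihood test of bulk against the mean of the pool groups, where 0.101% of 11917 genes did, 12 higher in bulk and 0 lower. Without adjustment 418 genes were higher and 325 lower at p under 0.05, and of the 6 transcripts 2 were lower, Plat (log2 fold change -3.37, SE 1.27, edgeR adjusted p = 0.515) and Tpx2 (-1.28, SE 0.56, edgeR adjusted p = 0.700). DESeq2 called none of the 6, with an adjusted p of 0.0574 for Plat. Leaving out bulk sample 3, 5, 6 or 8 left 0 genes called by edgeR. The log2 fold change of Mos was -0.42.

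Libraries with Y-shaped adapters covered exons from 5 of the later oocytes and from 10 mESCs, with 6462959 to 7865860 and 6200968 to 16296631 exon reads. Among these mESCs, the fresh and LCM labels of all 10 libraries were exchanged relative to the 3′ libraries they resembled most (r of 0.719 to 0.812), so that they were not separated by label. Which labels hold was not tested, and the values of fresh and LCM mESCs given above rest on the labels of the 3′ libraries. Mos, a gene of a single exon at chr4:3870657-3872105, had 3262 to 6539 reads in oocytes (median 4290) and 0 to 2 in mESCs. Plat, at chr8:22757727-22782844 with 14 exons, had 1244 to 2708 reads in oocytes (median 2169) and 0 to 1 in mESCs. Both were again nearly free of reads in mESCs. Of the oocyte reads of Plat, 92.5% fell on the last exon, 4.8 ± 1.5 of 14 exons passed a CPM of 2, and 35 to 75 reads crossed 8 of its 9 listed junctions.

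Dcp1a, at chr14:30479535-30527063 with 10 exons, had 618 to 1878 reads in oocytes (median 1335) and 1 to 329 in mESCs (median 37.5). In oocytes 97% of them lay on the last exon. The first exon had 42, 11, 41, 6 and 24 reads in the 5 oocytes, exons 4 to 7 had none, and mESCs had none on exons 1 to 9. Reads at both ends with a gap between were thus seen in oocytes. The annotation holds 1 transcript that ends before exon 4, Dcp1a-213, a retained intron that ends at position 30486279 and starts at 30479635. Ccnb2, at chr9:70407692-70421547, had at most 528 exon reads in oocytes (median 384) and 395 to 2191 in mESCs (median 1132), and Dcp2, at chr18:44380502-44424969, had 71 to 194 (median 130) and 224 to 979 (median 428.5). These reads are not scaled for depth, and the ranges of Dcp2 did not overlap. Tpx2, at chr2:152847964-152895321, had 250 to 1120 reads (median 730) and 45 to 1837 (median 540.5). Of its reads on the last exon, 18.3%, 5.58%, 1.04%, 10.0% and 4.38% lay beyond the short end in the 5 oocytes (152 of 2065 reads), and 0% to 37.9% (median 14.8%) in mESCs (749 of 4000). The ranges of the cell types overlapped. Reads before the short end lie in a stretch that both ends share and cannot be assigned to either.

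**Figure D4:**
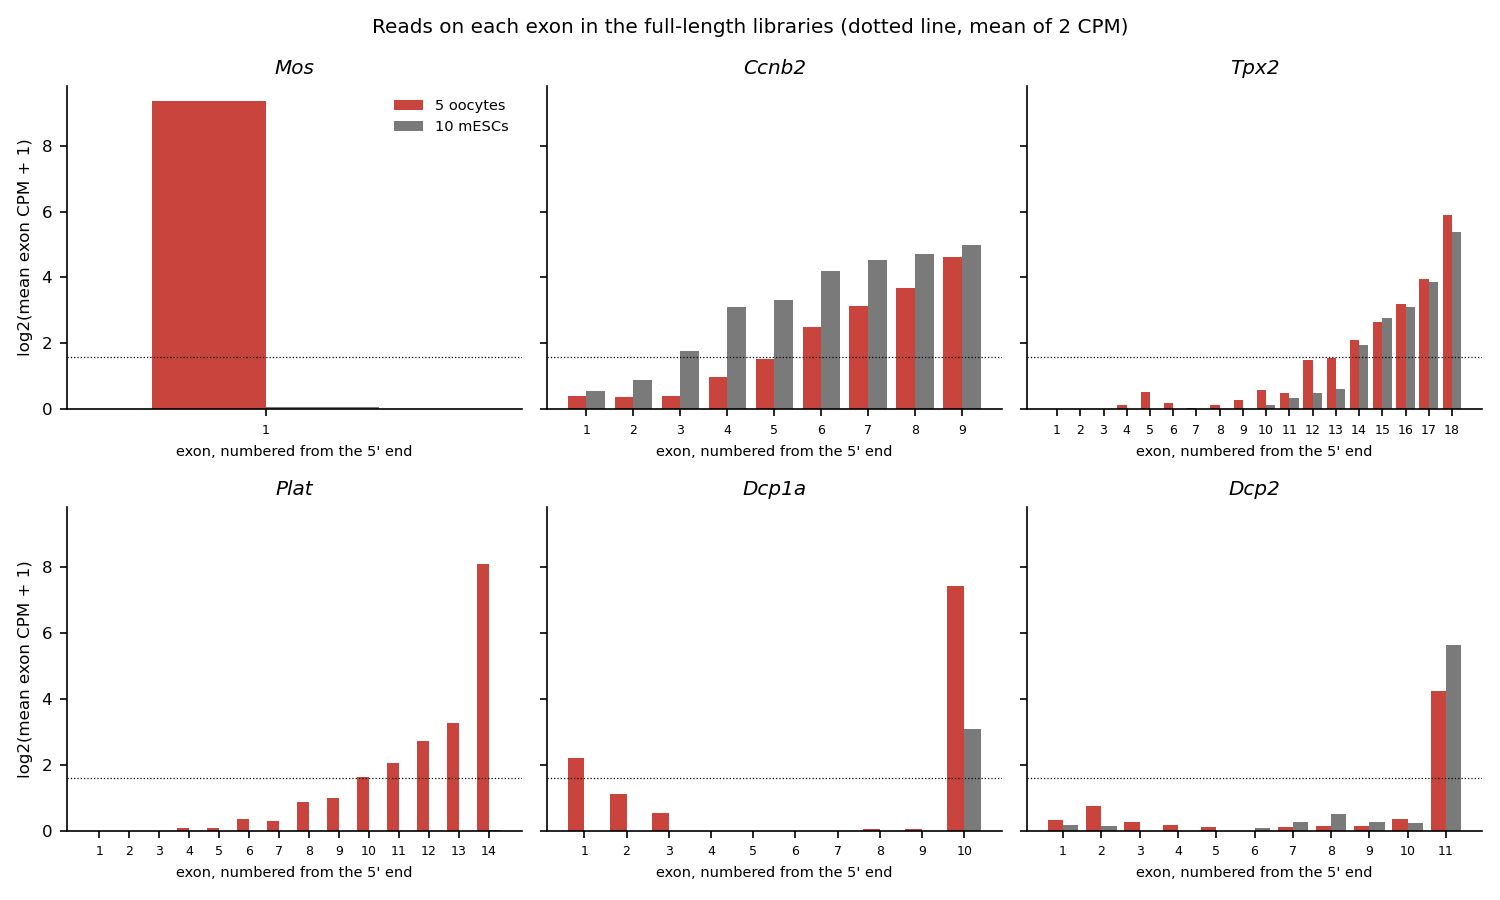
Mean CPM (reads scaled to 1000000 exon reads of a library, with TMM) on each exon, as log2 (CPM+1) with exons numbered from the 5′ end, in 5 later oocytes and 10 mESCs of the Y-shaped adapter libraries. The dotted line marks a mean of 2 CPM, the bars of Plat and Dcp1a are highest on the last exon, and Dcp1a also has reads on exon 1 in oocytes (6 to 42 a library).

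The levels of some transcripts went together over groups and cells. Over the means of 34 groups of 3′ libraries, of which 2 hold the 3 granulosa cells of mixed profile that the study set apart, Pearson's r of log2 (RPM+1) was 0.95 for Mos and Plat, 0.91 for Plat and Dcp1a and 0.88 for Mos and Dcp1a. It was 0.81 for Tpx2 and Dcp2, 0.75 for Ccnb2 and Tpx2 and 0.59 for Ccnb2 and Dcp2, and 0.59 for Tpx2 and Dcp1a as well, so that Ccnb2, Tpx2 and Dcp2 did not form a set of their own. Dcp1a and Dcp2, whose products form a complex, had an r of 0.57. Across the 30 later oocytes of DRaqL-SC3-seq, Plat and Dcp1a had an r of 0.93, Mos and Dcp1a of 0.82 and Mos and Plat of 0.75, so that these levels differed together from oocyte to oocyte. They also went with other genes there, with an r of 0.82 for Mos, 0.79 for Plat and 0.84 for Dcp1a with the oocyte genes, and of 0.72, 0.82 and 0.90 with the proliferation genes. Ccnb2 had an r of 0.63 with Plat, 0.51 with Dcp1a and 0.41 with Mos, against 0.34 with Tpx2 and -0.15 with Dcp2. The r of Tpx2 and Dcp2 was 0.00 there and that of Dcp1a and Dcp2 was 0.17. Across the 14 primary oocytes, the r of Mos and Plat was -0.22, that of Plat and Dcp1a was -0.02 and that of Ccnb2 and Plat was -0.68. The points share library totals, and the values are descriptions.

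**Figure D5:**
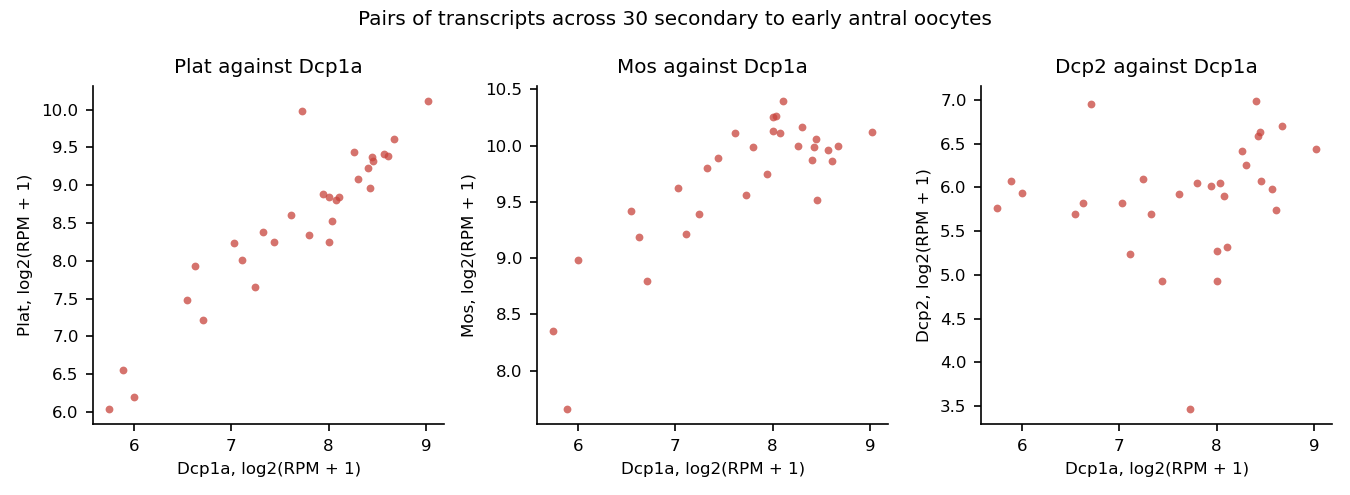
Levels of Plat, Mos and Dcp2 against that of Dcp1a, all as log2 (RPM+1), with 1 point for each of the 30 later oocytes of DRaqL-SC3-seq. Plat lies along a line with Dcp1a (r of 0.93), Mos rises with it (r of 0.82) and Dcp2 is scattered (r of 0.17).

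Out of 11818 genes, those with the most similar pattern over the 34 groups were ranked by Pearson's r. For Mos they were Btg4 (r of 0.98), Gm1070 and Izumo1r, the egg receptor for sperm. They were Slc45a3 (r of 0.97), AU022751 and Gm13084 for Plat, and Stk35 (r of 0.97), Ankrd44 and Dnah7c for Dcp1a. For Ccnb2 they were Cdc20 (r of 0.80), the activator of the anaphase-promoting complex, Shcbp1 and Gins1, for Tpx2 the kinetochore gene Ska3 (r of 0.88), Gmps and Nup37, and for Dcp2 Nifk (r of 0.94), Aco1 and Krr1. The order depended on the measure. By Spearman's coefficient H1foo was first for Mos, Cenpa for Ccnb2 and Gm13084 for Plat, while Ska3, Stk35 and Nifk remained first for their members.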

How the data were processed

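The deposited values were read counts per gene and, for the libraries with Y-shaped adapters, per exon and junction, without normalization. Per the submitters' processing notes and the paper's methods, the authors trimmed reads with fastp 0.20.0 and cutadapt 1.16, aligned them to GRCm38 with HISAT2 2.1.0 and counted them near annotated 3′ ends with HTSeq 0.10.0, or on exons with featureCounts 2.0.1. Counting near 3′ ends favors genes with well annotated ends, and whether strand was used is not given in the sources used here. Reads carried no molecular identifiers. Here, counts were divided by each library's protein-coding total (RPM), with a pseudocount of 1, and a filter of 2 on the mean of both groups' log2 (RPM+1). Single cells were compared without a test. Pools and bulk samples were tested on counts with edgeR 4.0.16 (R 4.3.3, quasi-likelihood F-test, TMM, filterByExpr, Benjamini-Hochberg, threshold 0.05), with DESeq2 1.42.0 as an alternative, and the edgeR steps were tested on simulated data. Exon counts were scaled by TMM. A ratio against a group without reads used a floor of 3 reads over the group. Motifs were searched in GENCODE transcripts of GRCm38, 1 per gene.

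The members, gene lists and tests were chosen with earlier results of these data known. Named genes are the 6 members, the genes of each fixed list with the largest stage differences in DRaqL-SC3-seq (2 in each direction), the top gene of each marker list, and the 3 genes most like each member over group means by Pearson's r. The gene most like each member by Spearman's coefficient is named as well. Alternatives were other pseudocounts, summed counts, TMM, thinning, spike-in scaling, no filter, other cells, DESeq2, the pool number as a block, and leaving out libraries. The 3 DRaqL-SC3-seq cells of mixed profile that the authors set apart were left out of the comparisons but kept, as 2 groups, in the correlations over 34 group means, and mixed cells of other methods were kept. The paper's supplementary values were not used.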

Additional observations from a re-analysis of the deposited data

Results flagged for a closer look

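In groups of 4 to 10 libraries, the highest or lowest library was set apart from its nearest neighbor by Dixon's gap ratio in 13 of 54 combinations of transcript and group, where chance gives about 1 in 20. In DRaqL-SMART-Seq v4, primary oocyte 2 (467352 reads) read 0 RPM of Tpx2 and 0 of Dcp1a, with the nearest oocytes at 30.5 and 42.1, and later oocyte 2 (311076 reads) read 41.8 of Tpx2 and 35.4 of Dcp2, with the nearest at 135 and 107.6. Formalin-fixed later oocyte 3 (188906 reads) read 0 of Ccnb2 and 21.2 of Tpx2, with the nearest at 58.1 and 186. Captured oocyte 8 of the set from 1 mouse (573262 reads) read 249 RPM of Mos, with the nearest at 769. Bulk granulosa sample 2 (4829120 reads) read 0 of Ccnb2, 117 of Dcp1a and 105.4 of Dcp2, with the nearest at 14.6, 20.3 and 50.8. Neighboring pool 5 read 22.2 of Tpx2 (nearest 67.0), neighboring pool 3 read 2.75 of Dcp1a (nearest 47.8), and non-neighboring pool 6 read 64.3 of Plat (nearest 1.44). The causes were not tested.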

How the results depend on the processing

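The stage differences of Mos, Plat and Dcp1a kept their direction in each of the 4 methods under each alternative run. Leaving out single oocytes of SMART-Seq v4 and DRaqL-SMART-Seq v4 and later oocytes after formalin was added after seeing the data, and turned the sign of Dcp2 in SMART-Seq v4 (0.22 to -0.0041 without primary oocyte 4). A pseudocount of 10 lowered the number of genes past 2-fold by stage from 5272 to 3128 in DRaqL-SC3-seq, and gave 3100 in SMART-Seq v4, 3978 in DRaqL-SMART-Seq v4 and 3806 after formalin. Scaling to spike-in reads gave 8810 in SMART-Seq v4 and 10356 in DRaqL-SMART-Seq v4. Summed counts left 3 of the 6 transcripts past 2-fold in DRaqL-SC3-seq both by stage and against granulosa cells, and thinning gave 4313 genes in the dissociated set. Against granulosa cells, summed counts reversed Dcp2 in DRaqL-SC3-seq (-0.40), Ccnb2 in SMART-Seq v4 (-0.041) and DRaqL-SMART-Seq v4 (-0.13) and Tpx2 in the dissociated set (-0.39).

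In the pools, the share of genes called was 0.453%, and became 2.90% with DESeq2, 0.940% with the bulk samples in the fit and 0.0296% to 0.567% when a pool was left out, lowest without neighboring pool 5. The deviations of same-numbered pools had correlations of 0.188, 0.068, 0.020, 0.024, 0.006, 0.073 and 0.123, and the same number ranked 1, 2, 2, 2, 3, 1 and 1 among the 7 pools of the other position. Pairing was taken to need a correlation over 0.1 in every pair, so that the block was kept as an alternative and a shared source was not tested. With the replicate block, 0.197% were called, Mos was at 7.64 (edgeR adjusted p = 0.0277), Plat at 5.79 (edgeR adjusted p = 0.197) and Tpx2 turned to 0.12. Leaving out a pool gave 6.28 to 7.21 for Mos, 3.38 to 7.48 for Plat, 0.73 to 1.896 for Dcp1a, -0.10 to 1.34 for Ccnb2, -0.54 to 0.31 for Tpx2 and -1.21 to 0.42 for Dcp2. In the bulk test, 0.101% became 2.07% with DESeq2, 2.31% without a filter and 0.00% to 0.469% when a bulk sample was left out. TMM scaling moved the median of all genes by -0.11, 0.00, 0.23 and 0.04 in the stage comparisons in the order of the methods, by -0.25, 0.29, 0.26, 0.27, 0.22 and 0.54 against granulosa cells and by -0.38 against LCM mESCs. The causes were not tested. The shallowest libraries limit values of single oocytes and granulosa cells, and no variation between mice is covered.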
